A study of Mus musculus with 15 samples.

Results

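The 31 genes described here encode proteins of myelin and of the mature oligodendrocytes that make it, followed through the RNA of mouse medial prefrontal cortex. They were taken by name from a table of 54736 genes, each with a mean of at least 1 TPM (the unit of the table, an abundance scaled for transcript length and library total). All 31 named genes met that minimum. Nkx6-2 lay nearest to it at 1.39 TPM, and Enpp2 had the highest mean at 111 TPM. In all, 18656 genes met the minimum and were tested.

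Male mice on a C57BL/6 background, 8 to 10 weeks old, gave micropunches of medial prefrontal cortex, and their total RNA was sequenced on a BGISEQ-500 instrument. KO libraries (n = 8) stand for Df(h15q13)/+ mice, heterozygous for a deletion on chromosome 7 that models the human 15q13 microdeletion. WT libraries (n = 7) stand for their wild-type littermates, which carry both copies. These numbers follow the sample titles, while the design text gives them the other way round. The labels name no individual animals, so p-values measure the spread between libraries. The 5 tested genes of the deleted segment, Fan1, Mtmr10, Otud7a, Chrna7 and Klf13, fell in KO (limma, Benjamini-Hochberg adjusted p up to 0.00792), which checks the titles. The cortical label was met by Slc17a7, the vesicular glutamate transporter gene of cortical excitatory neurons, at 1010 ± 177 TPM (SD, n = 7) in WT. TPM keeps no sequencing depth, so no counting interval is given. A library had 18375 to 18748 genes at 1 TPM or more. Mitochondrially encoded transcripts took a share of 18.8% to 26%, lowest in KO 1, with KO 8 at 21.4%.

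Myelin is the multilayered membrane that oligodendrocytes wrap around axons, where it speeds conduction and supports the axon. Oligodendrocytes arise from proliferating precursors, and the transcription factors SOX10 and MYRF drive the switch to the mature, myelinating state. In cortex, myelin is sparse in the upper layers, denser in the deep layers and densest in the white matter beneath.

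Across the 15 libraries, 2 KO libraries stood apart in nearly all of the myelin genes. KO 8 was the highest of all libraries for 26 of the 31 genes and KO 1 for 4, and for 26 genes these 2 libraries were the 2 highest of all 15. The same held for 2.64% of all tested genes, 492 in number. KO 1 and KO 8 were picked out by their values on the 31 genes, so this contrast is a description. Relative to the WT median, the 31 genes stood at a median of 2.42-fold in KO 8, with a range of 0.966 to 3.99, and at a median of 1.68-fold in KO 1, with a range of 0.608 to 3.62. The other 6 KO libraries lay on the opposite side, with a mean below the WT mean for 30 of 31 genes and a median of 78.6% of it. They are what remained once the 2 highest were set apart, so a lower mean is partly by construction. In the limma fit without KO 1 and KO 8, 45.3% of all tested genes had a fitted change below 0. With all libraries the groups overlapped in all 31 genes, while 0.134% of all tested genes had KO and WT libraries that did not overlap. A difference in the number of oligodendrocytes and a difference in myelin RNA per cell cannot be told apart in bulk tissue.

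**Figure D1:**
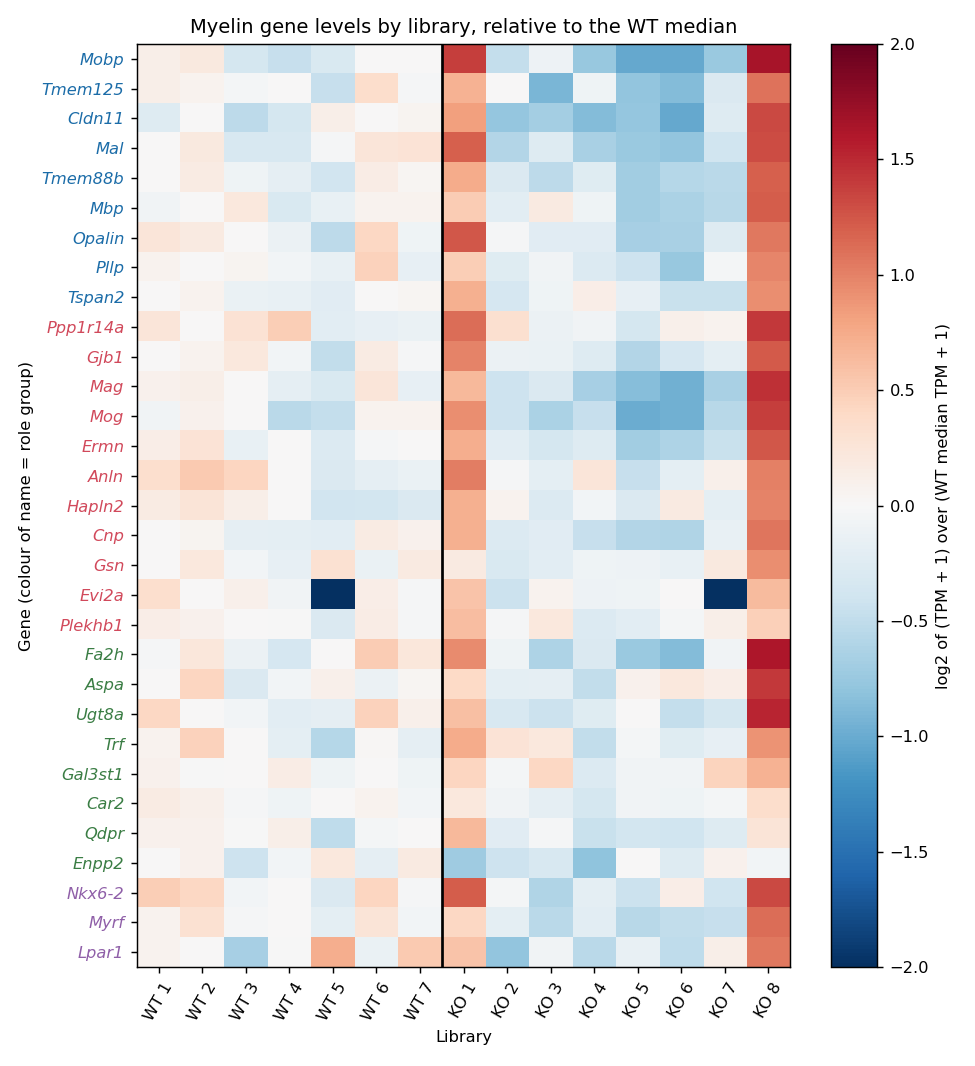
Heat map of the 31 genes (rows, names coloured by role group) in the 15 libraries (columns), as log2 of (TPM + 1) over (WT median TPM + 1); the scale stops at 2 in either direction, and both darkest blue cells are Evi2a, listed at 0. KO 1 and KO 8 are red in nearly every row, the other 6 KO libraries are mostly blue, and the WT libraries are pale.

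The mean log2(TPM + 1) over the 31 genes also placed KO 8 and KO 1 highest. It was 3.93, 3.98, 3.77, 3.73, 3.55, 3.93 and 3.85 in WT 1 to WT 7. In KO 1 it was 4.53 and in KO 8 it was 4.89, while KO 2 to KO 7 had 3.61, 3.60, 3.52, 3.40, 3.40 and 3.53. Of the 6 lower KO libraries, KO 2 and KO 3 stood above the lowest WT library, WT 5, and the other 4 stood below it. WT averaged 3.82 ± 0.15 (SD, n = 7), and KO averaged 3.81 ± 0.57 (SD, n = 8), a difference of -0.01 ± 0.22 (SE) on the log2 scale. The group medians differed by -0.28. Without KO 1 and KO 8 the KO mean was 3.51 ± 0.09 (SD, n = 6), and the difference from WT was -0.31 ± 0.07 (SE). These 2 libraries were left out because of their myelin values, so this difference is lower by construction and is given as a description.

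**Figure D2:**
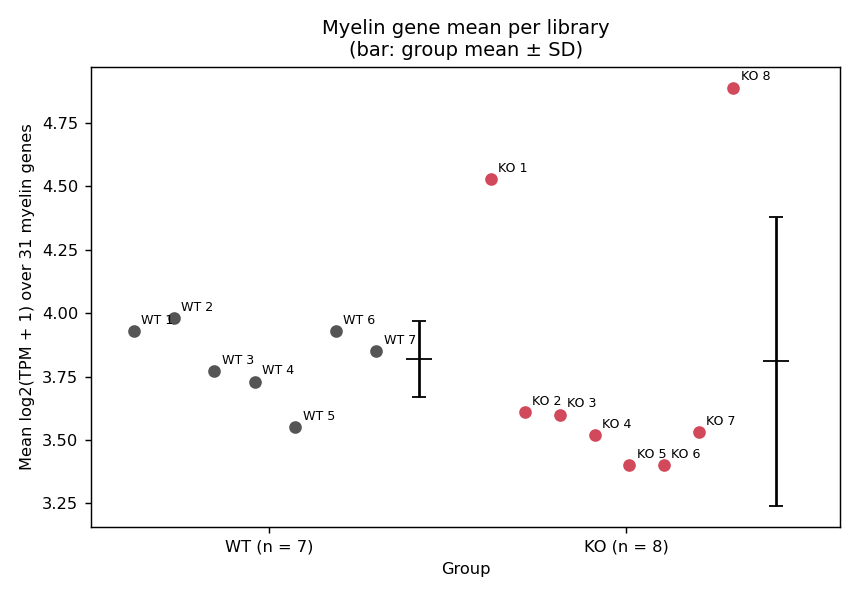
Mean log2(TPM + 1) over the 31 genes, 1 point per library, for WT (n = 7) and KO (n = 8), with the group mean and SD as a bar. The group means are 3.82 and 3.81, and KO 8 at 4.89 and KO 1 at 4.53 lie above all WT libraries.

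The spread between libraries was larger in KO for every gene of the set. The coefficient of variation of TPM was larger in KO than in WT for 31 of 31 genes, with a median of 61.9% against 17.4%. Over the 6 KO libraries other than KO 1 and KO 8 the median was 19.1%. Those 2 libraries were set apart for their high myelin values, so the smaller spread without them is partly by construction. The share of all tested genes with a larger spread in KO was not computed. The larger spread is therefore not shown to be particular to these genes.

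In the limma test of KO against WT, 0 of the 31 genes passed at an adjusted p of 0.05 (0.0268% of all 18656 tested genes did, 5 in number and all in the deleted segment). At an unadjusted p under 0.05 there were also 0 of 31, against 5.68% of all tested genes higher and 6.21% lower in KO. Fitted changes were below 0 for 19 genes, against 45.3% of all tested genes, and above 0 for 12, from -0.28 to 0.23 on the log2(TPM + 1) scale. Their median was -0.02, and that of all tested genes was 0.02. The adjusted p-values lay between 0.429 and 0.993. The median SE of a fitted change was 0.23, so for a typical gene of the set a change of the size seen in the 6 lower KO libraries was not detectable with all libraries in the fit.

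A group of 9 genes encodes proteins of compact myelin and other membrane proteins of oligodendrocytes. Their RNA was highest in KO 1 and KO 8, the 2 highest libraries for all 9. Mobp, which encodes a small basic protein of compact myelin, ranged from 65.9 to 104 TPM in WT with a median of 91.0. In KO its lowest value was 44.1, its median 59.5 and its highest 287 in KO 8, with 238 in KO 1. Both high libraries were more than double any WT library, and KO 2 to KO 7 all lay below the WT median. Mbp, the basic protein that joins the cytoplasmic faces of the myelin membrane, had a lowest, median and highest value of 67.2, 83.5 and 97.3 TPM in WT. In KO these were 51.0, 75.1 and 195, with 119 in KO 1. KO 1 and KO 8 again exceeded every WT library, and of the lower KO libraries KO 2, KO 3 and KO 4, at 72.1, 95.2 and 78.2, lay inside the WT range. The log2 fold changes were -0.02 ± 0.37 (SE; limma adjusted p = 0.982) for Mobp and -0.01 ± 0.23 (adjusted p = 0.987) for Mbp.

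Opalin, a sialylated membrane glycoprotein of central myelin, was highest in KO 1. Its TPM was 3.12 to 6.89 in WT (median 4.91), 2.73 to 4.84 in the 6 lower KO libraries, 13 in KO 1 and 11.3 in KO 8 (log2 fold change 0.02 ± 0.27 (SE), limma adjusted p = 0.98). The other 6 genes of this role were Mal and Pllp, proteolipids of myelin membrane, Cldn11, which forms the tight junctions between myelin layers, the tetraspanin gene Tspan2, and the transmembrane protein genes Tmem88b and Tmem125. In KO 8 all 9 stood at 1.97-fold to 3.16-fold of the WT median, and in KO 1 at 1.42-fold to 2.64-fold. In the 6 lower KO libraries their means were 61.1% to 89.1% of the WT mean. None of the 9 passed the test, and the fitted changes of these 6 were -0.15 for Cldn11 and Tmem125, -0.12 for Mal, -0.08 for Pllp, -0.07 for Tmem88b and 0.09 for Tspan2.

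A further 11 genes encode proteins of the contact between myelin and axon, of junctions and of the cytoskeleton. Mag, the myelin-associated glycoprotein on the membrane next to the axon, had 23.3 to 34.3 TPM in WT with a median of 28.9. In KO the lowest value was 14.4, the median 19.8 and the highest 81.5 in KO 8, followed by 45.7 in KO 1. Of the 6 lower KO libraries only KO 3, at 23.4, exceeded the lowest WT library, WT 5. With all libraries the log2 fold change of Mag was -0.19 ± 0.29 (SE; limma adjusted p = 0.785). Once KO 1 and KO 8 were left out, Mag had the lowest fitted value of the set, at -0.61 ± 0.12 (adjusted p = 0.135). Those 2 libraries were left out for their high values on these genes, so the lower value is by construction and is no test of the genotype.

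Mog, the glycoprotein of the outermost myelin layer, was at 7.57 to 12.3 TPM in WT (median 11.5), 5.31 to 8.42 in the lower KO libraries, 22.9 in KO 1 and 31.7 in KO 8. Cnp, an enzyme of the cytoplasm-filled channels of myelin, was at 50.4 to 65.1 TPM in WT (median 58.2), 38 to 52.4 in the lower KO libraries, 95.6 in KO 1 and 123 in KO 8. Both followed the order seen for Mag. Their log2 fold changes were -0.09 ± 0.31 and -0.02 ± 0.22 (SE; limma adjusted p = 0.915 and 0.969). Cnp overlaps Dnajc7 on the opposite strand, and with no strand setting given their reads cannot be told apart with certainty. In all 8 of the 31 genes overlap an annotated gene of at least 1 TPM. Besides Cnp, Evi2a and Nkx6-2 these are Mbp (Rpl21-ps8, opposite strand, 40.1 TPM), Lpar1 (Gm12577, same strand, 7.27 TPM), Mobp (Gm38642), Pllp (Gm45767) and Enpp2 (Gm26684).

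For Hapln2, a link protein of the matrix at nodes of Ranvier, the lower KO libraries lay inside the WT range. It had 2.55 to 4.53 TPM in WT (median 3.64), 2.79 to 4.25 in the lower KO libraries, 6.56 in KO 1 and 8.28 in KO 8. Its log2 fold change was 0.22 ± 0.19 (SE; limma adjusted p = 0.625). Plekhb1, which encodes a protein with a pleckstrin homology domain and had the highest mean of this role, was at 65.1 to 89.0 TPM in WT (median 79.9) and 66.2 to 92.5 in the lower KO libraries. With 123 TPM in KO 1 and 111 in KO 8 it had the lowest ratio of the 11 genes in KO 8, at 1.39-fold of the WT median (log2 fold change 0.10 ± 0.12, limma adjusted p = 0.722).

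The remaining genes of this role covered the cytoskeleton (Ermn, Anln and Gsn), a gap junction protein (Gjb1, connexin 32), a phosphatase inhibitor (Ppp1r14a) and the membrane protein gene Evi2a. Ppp1r14a had the highest ratio of the 11 in KO 8, at 3.24-fold of the WT median, and the largest positive fitted change of all 31 genes, 0.23 ± 0.23 (SE; limma adjusted p = 0.671). Gsn, the actin-severing protein gelsolin, stood at 1.96-fold in KO 8 but at 1.14-fold in KO 1, which ranked 5 of 15. The fitted changes were 0.01 for Gsn, 0.09 for Anln and Gjb1 and -0.07 for Ermn. Evi2a was listed at 0 in WT 5 and KO 7 and at 5.66 to 13 TPM in the other 13 libraries. It lies within Nf1 on the opposite strand, and its fitted change of 0.07 ± 0.56 (SE; limma adjusted p = 0.966) rests on those values of 0.

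Enzymes and transport proteins made up 8 genes, and 1 of them, Enpp2, departed farthest from the rest. Enpp2, autotaxin, a secreted enzyme that makes lysophosphatidic acid, had 91.8 to 142 TPM in WT with a median of 123. In KO it ranged from 70.0 to 131 with a median at 81.5% of the WT median, with 74.9 in KO 1 and 119 in KO 8. It was the only gene of the 31 that stood below the WT median in both of these libraries. Its log2 fold change was -0.28 ± 0.13 (SE; limma unadjusted p = 0.054, adjusted p = 0.429), and leaving out KO 1 and KO 8 left it at -0.26. Enpp2 is also strongly expressed in choroid plexus, whose markers summed to 3.14 to 10.4 TPM in WT and 4.71 to 10.3 TPM in KO. Its highest values were 142 TPM in WT 5, 139 in WT 7 and 131 in KO 7. These libraries were also highest for the mean of meningeal genes, at 4.34, 3.90 and 3.86 on the log2(TPM + 1) scale. The lowest Enpp2 library, KO 4, stood at 2.68, and KO 2, lowest for the meningeal mean at 1.67, had 92.5 TPM of Enpp2. The part of other tissues in the Enpp2 values was not tested.

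Qdpr, which regenerates the cofactor tetrahydrobiopterin, was at 61.5 to 95.8 TPM in WT (median 88.2), 64.4 to 86.5 in the lower KO libraries, 139 in KO 1 and 106 in KO 8. It was higher in KO 1 than in KO 8, the reverse of most genes of the set (log2 fold change -0.06 ± 0.15 (SE), limma adjusted p = 0.872). Car2, the carbonic anhydrase gene of oligodendrocytes, differed little, at 1.16-fold of the WT median in KO 1 and 1.28-fold in KO 8. The genes of the myelin lipids differed between the high libraries. Ugt8a, which makes galactosylceramide, stood at 3.16-fold in KO 8 and 1.6-fold in KO 1, Fa2h, the fatty acid 2-hydroxylase, at 3.36-fold and 2.07-fold, and Gal3st1, which makes sulfatide, at 1.73-fold and 1.41-fold. Aspa, which cleaves N-acetylaspartate, was at 3.20-fold and 1.42-fold, and Trf, the iron carrier transferrin, at 1.88-fold and 1.70-fold. The fitted changes were -0.08 for Fa2h, -0.06 for Car2, -0.04 for Ugt8a, 0.16 for Aspa, 0.18 for Gal3st1 and 0.21 for Trf, and none passed. Gal3st1 was the 1 gene of the 31 whose mean in the 6 lower KO libraries exceeded the WT mean, at 107% of it.

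The 3 regulators also had their highest value in KO 8. Myrf, the transcription factor that switches on myelin genes, had 3.86 to 5.82 TPM in WT (median 4.55) and 2.76 to 3.83 TPM in the 6 lower KO libraries, with 6.37 in KO 1 and 11 in KO 8. It was the 1 gene of the 31 for which all 6 lower KO libraries lay below every WT library, by 3.83 against 3.86 TPM. These 6 were left after KO 1 and KO 8 were set apart for high myelin values. The share of all tested genes with such a split was not computed. With all libraries the log2 fold change of Myrf was -0.17 ± 0.21 (SE; limma adjusted p = 0.734). Nkx6-2, a homeobox factor of oligodendrocytes, had 0.650 to 1.85 TPM in WT (median 1.02), 0.337 to 1.21 in the lower KO libraries, 3.68 in KO 1 and 4.06 in KO 8. These were the highest ratios of the set, 3.62-fold and 3.99-fold of a low WT median (log2 fold change -0.01 ± 0.27 (SE), limma adjusted p = 0.993). Nkx6-2 overlaps Inpp5a on the opposite strand, at a mean of 26.7 TPM. Lpar1, a receptor for the lysophosphatidic acid that Enpp2 makes, had 3.60 to 11.1 TPM in WT (median 6.30), 3.22 to 6.95 in the lower KO libraries, 9.86 in KO 1 and 14.2 in KO 8. WT 5, the WT library with the lowest mean over the set, had the highest WT value of Lpar1 (log2 fold change -0.11 ± 0.26 (SE), limma adjusted p = 0.866).

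**Figure D3:**
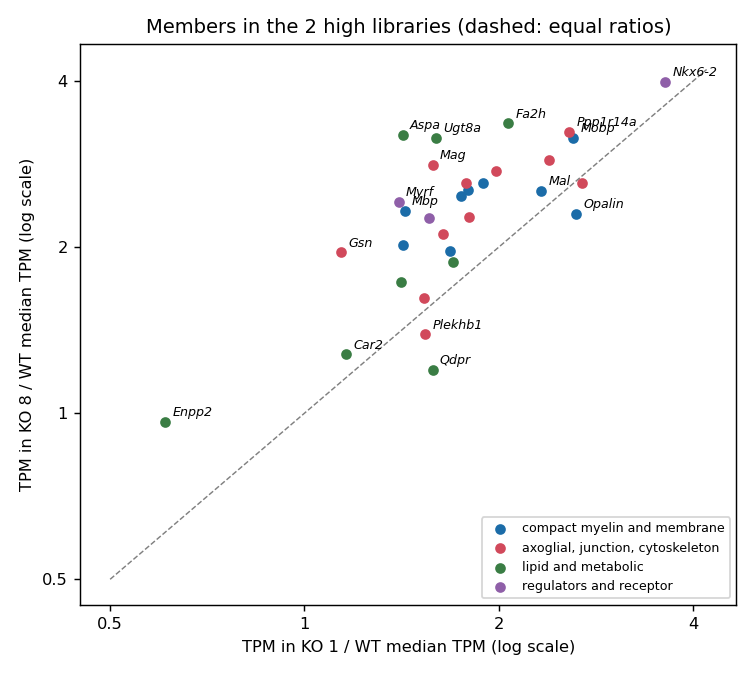
TPM in KO 8 against TPM in KO 1 for the 31 genes, each divided by the WT median, on log axes, coloured by role; the dashed line marks equal ratios. Most points lie above the line, Nkx6-2 lies farthest out at 3.62 and 3.99, and Enpp2 alone is below 1 on both axes.

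Relative to each other, the 31 genes kept their proportions in some cases and not in others. Each gene was set against the mean of all 31 in the same library on the log2(TPM + 1) scale. Cnp stood 0.04 above its WT mean in both KO 1 and KO 8, and Tmem125 within 0.01, so these genes tracked the set. Mobp was 0.78 and 0.69 above its WT mean in KO 1 and KO 8, and Mog 0.35 and 0.44. Enpp2 was at -1.39 and -1.09, Car2 at -0.52 and -0.75, and Plekhb1 at -0.10 and -0.61. For Mag, Ugt8a and Aspa the high libraries parted, with -0.04, -0.18 and -0.32 in KO 1 and 0.42, 0.38 and 0.33 in KO 8. Low TPM values are drawn together by the added 1, so amplitudes of the low genes are understated.

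In mm10 with GENCODE M21, Mobp (ENSMUSG00000032517) lies at chr9:120149707-120181484, Mag (ENSMUSG00000036634) at chr7:30899176-30914873, Enpp2 (ENSMUSG00000022425) at chr15:54838901-54952892 and Myrf (ENSMUSG00000036098) at chr19:10208272-10240748. Upstream sequences are shown for 6 genes of the set, to set genes of high and low ratio in KO 8 beside each other at sequence level. Of the 31 genes 24 had entries in the RefSeq table (build GRCm38.p6), 37 start sites in all, and the 250 bases before each start were searched on both strands. Capitals mark matches to any of 3 motifs. These are the SOX core ACAAT (or ATTGT), the MYRF-type motif CTGGCAC or CTGGTAC (or GTGCCAG or GTACCAG), and the longer SOX motif ACAAAG (or CTTTGT), the last added after the sequences were seen. No matches overlapped in the 6 sequences. They read 5′ to 3′ on the strand of the gene, for Mobp (chr9:120149492-120149741, plus strand), Opalin (chr19:41077114-41077363, minus strand), Mog (chr17:37023399-37023648, minus strand), Cnp (chr11:100574689-100574938, plus strand), Hapln2 (chr3:88027512-88027761, minus strand) and Qdpr (chr5:45450230-45450479, minus strand).
Mobp: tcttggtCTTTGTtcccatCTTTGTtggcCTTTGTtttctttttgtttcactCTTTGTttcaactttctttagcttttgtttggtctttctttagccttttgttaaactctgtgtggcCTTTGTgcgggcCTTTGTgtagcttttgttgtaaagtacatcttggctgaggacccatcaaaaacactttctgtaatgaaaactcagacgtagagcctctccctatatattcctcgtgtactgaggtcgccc
Opalin: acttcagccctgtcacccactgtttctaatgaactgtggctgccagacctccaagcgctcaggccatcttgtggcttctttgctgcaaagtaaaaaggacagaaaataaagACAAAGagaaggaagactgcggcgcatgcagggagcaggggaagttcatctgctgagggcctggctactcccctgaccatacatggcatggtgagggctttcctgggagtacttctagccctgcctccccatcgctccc
Mog: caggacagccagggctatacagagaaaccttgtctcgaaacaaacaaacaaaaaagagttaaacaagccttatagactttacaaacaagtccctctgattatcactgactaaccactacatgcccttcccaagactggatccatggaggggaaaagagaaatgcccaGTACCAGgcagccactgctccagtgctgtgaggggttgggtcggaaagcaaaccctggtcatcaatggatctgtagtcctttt
Cnp: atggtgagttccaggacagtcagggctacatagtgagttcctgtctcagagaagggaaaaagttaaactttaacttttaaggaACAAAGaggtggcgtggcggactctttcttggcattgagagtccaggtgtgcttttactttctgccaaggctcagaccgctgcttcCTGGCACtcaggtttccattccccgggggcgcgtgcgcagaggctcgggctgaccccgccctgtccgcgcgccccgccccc
Hapln2: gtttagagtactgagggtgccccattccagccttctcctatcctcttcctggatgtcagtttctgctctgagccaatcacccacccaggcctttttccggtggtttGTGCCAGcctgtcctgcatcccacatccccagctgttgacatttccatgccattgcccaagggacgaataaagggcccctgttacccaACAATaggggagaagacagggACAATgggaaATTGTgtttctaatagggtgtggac
Qdpr: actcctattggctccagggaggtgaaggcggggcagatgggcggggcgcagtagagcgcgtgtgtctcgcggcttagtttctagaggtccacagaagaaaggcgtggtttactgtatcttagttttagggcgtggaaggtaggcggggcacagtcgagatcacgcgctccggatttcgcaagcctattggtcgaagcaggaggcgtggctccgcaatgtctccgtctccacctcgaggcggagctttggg
Mobp, 3.16-fold of the WT median in KO 8, held 6 matches to the longer SOX motif in this window. Opalin held 1 of the same motif, Mog 1 MYRF-type match, and Cnp 1 of each. Hapln2 held 3 SOX core matches and 1 MYRF-type match. Qdpr, 1.20-fold in KO 8, held no match. The windows end at RefSeq starts. In GENCODE M21 Mobp, Cnp, Hapln2 and Qdpr start inside their windows, at chr9:120149707, chr11:100574904, chr3:88027583 and chr5:45450236. The 3 SOX core matches of Hapln2 thus lie within the gene as annotated there. Over all start sites of the set, the SOX core was found in 10 of 37 (27.0%, against 27.7% of all 32851 entries of the table). The MYRF-type motif was found in 6 of 37 (16.2%, against 5.93%) and the longer SOX motif in 11 of 37 (29.7%, against 16.5%). The longer SOX motif was picked from sequences of the set, so its higher share there is no independent result. Start sites of 1 gene can overlap, so the 37 are not independent, and a match is a description of these letters. The 6 genes shown were chosen after their values were seen, and a link between matches and level was not tested.

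With KO 1 and KO 8 left out, the 6 remaining KO libraries had lower fitted values than WT for 30 of 31 genes, against 45.3% of all tested genes. The median fitted change was -0.33, against 0.02 for all tested genes, with a range from -0.61 for Mag to 0.06 for Gal3st1. By limma at the unadjusted level of 0.05, 19 genes were lower and 0 higher, against 5.56% of all tested genes lower and 5.29% higher. At the adjusted level 0 passed, against 0.0322% of all genes, 0.00536% being higher. By role, 8 of 9 compact myelin and membrane genes, 5 of 11 axoglial, junction and cytoskeletal genes, 4 of 8 enzyme and transport genes and 2 of 3 regulators were lower at the unadjusted level. Mal, Cldn11 and Myrf had fitted changes of -0.57, -0.60 and -0.47 (limma adjusted p = 0.197 for each). The libraries were dropped for their own high values on these genes, which lowers the fitted change of every gene of the set but Enpp2, so these counts do not stand as a test of the genotype.

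**Figure D4:**
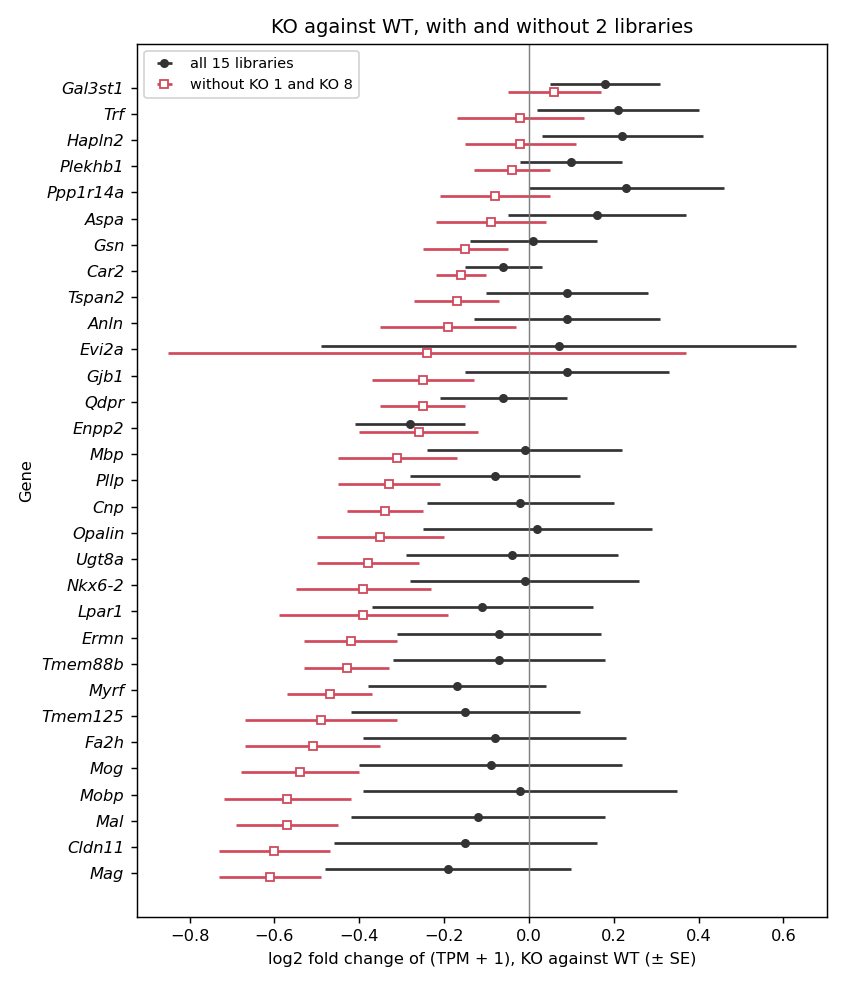
Log2 fold change of (TPM + 1), KO against WT, with its SE for each of the 31 genes, from all 15 libraries (black circles) and without KO 1 and KO 8 (open red squares). The black points lie between -0.28 and 0.23, and 30 of the 31 red squares lie below 0, with a median SE of 0.13 against 0.23.

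Adjusting for the level of other oligodendrocyte genes narrowed the errors without bringing a gene past the threshold. The mean of 41 other mature oligodendrocyte genes, none of them in the set, was used as a covariate. The median SE was 0.13, against 0.23 without the covariate, and fitted KO against WT changes ran from -0.27 for Enpp2 to 0.30 for Ppp1r14a, with 10 of 31 below 0, against 45.6% of all genes. Of the 31, 0 passed (0.0268% of all genes did), and 2 were higher and 0 lower at an unadjusted p under 0.05, against 5.82% and 6.57% of all genes. These were Gal3st1 at 0.21 (limma adjusted p = 0.379) and Hapln2 at 0.27 (adjusted p = 0.399).

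The mean of other mature oligodendrocyte genes was also highest in KO 8 and KO 1, though not every gene was. On the log2(TPM + 1) scale their mean over 41 tested genes was 3.86 to 4.0 in WT, 3.69 to 3.90 in the 6 lower KO libraries, 4.13 in KO 1 and 4.39 in KO 8. For 13 of the 41 genes KO 1 and KO 8 were the 2 highest libraries, against 2.64% of all tested genes. Sox10, the transcription factor of the whole lineage, stood at 1.42-fold of its WT median in KO 1 and 1.82-fold in KO 8, and Olig1, another lineage factor, at 1.19-fold and 1.35-fold. Ptgds, a prostaglandin synthase gene, Apod, an apolipoprotein gene, and Anxa3, an annexin gene, lay below their WT medians, at 0.372-fold, 0.968-fold and 0.526-fold in KO 1 and 0.847-fold, 0.703-fold and 0.714-fold in KO 8. Ptgds and Apod were lowest in KO 2 (113 and 39.4 TPM) and highest in WT 5 (2020 and 102 TPM). These were also the lowest and highest libraries for the mean of meningeal genes, at 1.67 and 4.34. The part of meninges in the Ptgds and Apod values was not tested. None of the 41 passed the test, and at an unadjusted p under 0.05 there were 2 lower and 1 higher (against 6.21% and 5.68% of all tested genes). The lowest p-values belonged to Efnb3, an ephrin ligand gene (0.62 ± 0.24, SE; limma adjusted p = 0.377), Anxa3 (-0.42 ± 0.19, adjusted p = 0.397) and Cdc42ep1 (-0.28 ± 0.12, adjusted p = 0.398).

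Precursor genes did not share the high values of KO 1 and KO 8. The 16 precursor genes had a mean of 3.77 to 4.09 in WT and 3.68 to 3.86 in the 6 lower KO libraries, and stood at 3.74 in KO 8 and at 3.58 in KO 1, the lowest of all 15 libraries. Pdgfra, the growth factor receptor that defines these cells, was at 0.422-fold of its WT median in KO 1 and 0.758-fold in KO 8. Of the 16 genes 0 passed, 13 had fitted values below 0 (45.3% of all tested genes did), and 6 were lower at an unadjusted p under 0.05 (6.21% of all tested genes were), among them Ptprz1 (-0.38 ± 0.11, SE), Cspg4 (-0.53 ± 0.16) and Olig2 (-0.22 ± 0.07), with limma adjusted p-values of 0.291, 0.311 and 0.333. Among 15 genes of committed, newly forming oligodendrocytes 0 passed and 11 had values below 0, led by Itpr2 (-0.28 ± 0.10), Mpzl1 (-0.18 ± 0.08) and Tcf7l2 (-0.21 ± 0.12; limma adjusted p = 0.334, 0.42 and 0.466). Their mean was 3.14 to 3.53 in WT, 3.23 in KO 1 and 3.49 in KO 8, inside the WT range. Enpp6, a choline phosphodiesterase of newly forming cells, was at 1.91-fold and 2.56-fold of its WT median in KO 1 and KO 8. Gpr17, a receptor of the same stage, was at 0.763-fold and 1.29-fold, and Itpr2 at 0.625-fold and 0.972-fold. Of the 15 genes 1 had KO 1 and KO 8 as its 2 highest libraries, against 2.64% of all tested genes.

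Lipid synthesis was followed with 22 genes of the cholesterol pathway and 17 of the sphingolipid pathway, which supply myelin and are also active in other cells. The cholesterol list had a mean of 5.16 in both KO 1 and KO 8, above the 4.82 to 5.03 of WT and the 4.76 to 5.03 of the other KO libraries. In the test 0 of 22 passed, and 16 had values above 0 and 6 below (45.3% of all tested genes were below 0). At an unadjusted p under 0.05 there were 0 in either direction, against 5.68% of all tested genes higher and 6.21% lower. Fdps (0.22 ± 0.12, SE), Cyp51 (-0.11 ± 0.08) and Fdft1 (0.11 ± 0.09) had the lowest p (limma adjusted p = 0.454, 0.573 and 0.608). The sphingolipid list stood at 5.12 in KO 1 and 4.96 in KO 8, with a WT range of 4.98 to 5.14. Of its 17 genes 0 passed and 3 were lower at an unadjusted p under 0.05 (6.21% of all tested genes were). These were Sgms1, a sphingomyelin synthase gene (-0.25 ± 0.06, limma adjusted p = 0.26), Degs1, a ceramide desaturase gene (-0.44 ± 0.17, adjusted p = 0.377), and Galc, which degrades galactosylceramide (-0.18 ± 0.08, adjusted p = 0.409).

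Genes of the axonal node and paranode, which neurons supply in large part, were low in KO 1. The mean of 17 such genes was 5.71 in KO 1, the lowest of all libraries, and 6.31 in KO 8, the second highest, against 5.94 to 6.35 in WT. None passed, 14 had values below 0 (45.3% of all tested genes did) and 1 was lower at an unadjusted p under 0.05 (6.21% of all tested genes were). That gene was Kcna2, a potassium channel gene of the juxtaparanode (-0.40 ± 0.17, SE; limma adjusted p = 0.388), followed by Tnr (-0.23 ± 0.11, adjusted p = 0.425) and Cntnap1, the paranodal adhesion gene (-0.27 ± 0.15, adjusted p = 0.465).

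**Figure D5:**
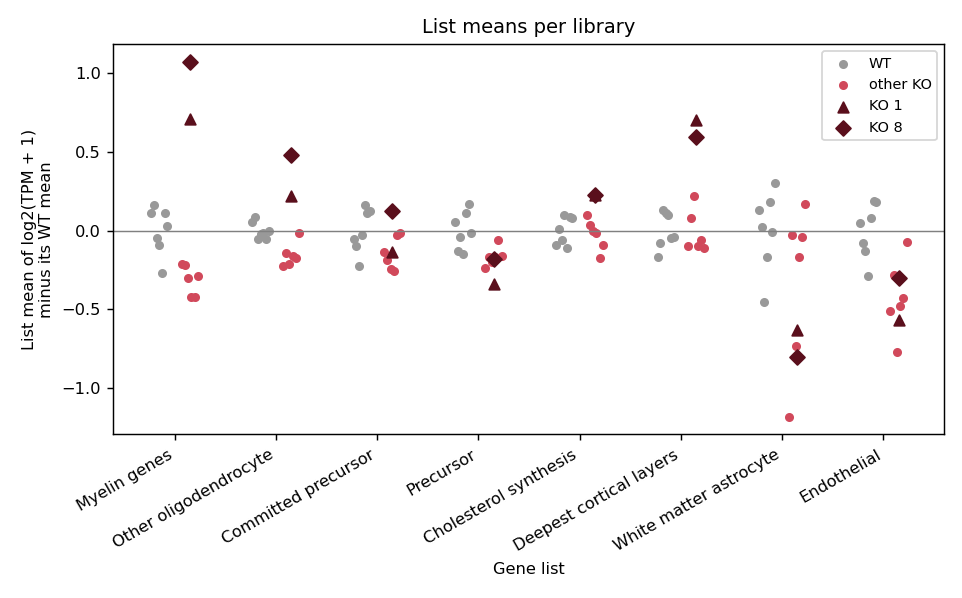
Mean log2(TPM + 1) of 8 gene lists per library, minus the WT mean of the list, for WT, the 6 lower KO libraries, KO 1 (triangle) and KO 8 (diamond). Both marked libraries are high for the myelin, other oligodendrocyte, cholesterol and deepest-layer lists, and low for the precursor and white matter astrocyte lists.

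Some markers of the deepest cortical layers were also high in KO 1 and KO 8. These were the 2 highest libraries for 3 of 9 tested genes, against 2.64% of all tested genes. KO 1 stood at 3.28 and KO 8 at 3.17 for the mean of the 9, while WT ran from 2.41 to 2.71 and the other KO libraries from 2.47 to 2.80. The 10 genes measured from this list summed to 102 and 89.2 TPM in these 2 libraries, 52.3 to 66.7 TPM in WT and 53.2 to 72.9 TPM in the other KO libraries, with none listed at 0 throughout. Foxp2, a transcription factor of deep-layer neurons, reached 6.27 TPM in KO 1 and 5.64 in KO 8, and its WT values ran from 0.882 to 1.95. Gnb4 and Nr4a2, of the same list, stood at 1.17-fold and 0.919-fold of the WT median in KO 1 and at 0.915-fold and 0.863-fold in KO 8. Cux2, a factor of upper-layer neurons, was at 0.520-fold of its WT median in KO 1 and 0.442-fold in KO 8. Striatal and septal markers, with means of 3.37 and 3.33 in KO 1 and KO 8, lay within the WT range of 3.21 to 3.38. Among them the dopamine receptor gene Drd1 stood at 3.20-fold of the WT median in KO 1 and 2.15-fold in KO 8. Adora2a, an adenosine receptor gene of striatum, was at 0.915-fold and 1.13-fold. Drd2, with a mean of 0.894 TPM, did not meet the 1 TPM minimum and is not in these means. It was at 4.21-fold and 1.79-fold of a low WT median. KO 3 was also high, with 7.24 TPM of Drd1, against 8.14 in KO 1 and 5.48 in KO 8. For Drd2 KO 3 was the highest library, at 2.5 TPM, against 2.29 in KO 1. The part of these layer and regional markers in the myelin result was not tested.

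A broader search listed the tested genes that were highest in the same 2 libraries. Where both KO 1 and KO 8 exceeded every other library, the lower of them was divided by the highest other library on the TPM + 1 scale. The ratio reached 1.5 for 8 of the 31 genes (25.8%) and for 7 of the other 18625 tested genes (0.0376%). KO 1 and KO 8 were picked out by their values on the 31 genes, so a higher share in the set follows from that choice. Among those 7, named after their values were seen, were Syt6, Chrna5, Foxp2, Prss35, Hs3st4 and Prr18. Chrna5 and Prss35 had WT means of 0.91 and 0.746 TPM and met the 1 TPM minimum through KO 1 and KO 8, so their place in the count was fixed by the filter. Syt6, a synaptotagmin gene on the deepest-layer list, had the highest ratio, with 14.3 TPM in KO 1, 15.4 TPM in KO 8 and 1.49 to 5.67 TPM over WT.

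Astrocyte, microglial and vessel genes were not high in these 2 libraries. White matter astrocyte genes, 7 tested, had a mean of 4.19 in KO 1 and 4.02 in KO 8, below the 4.37 to 5.12 of WT. The other KO libraries ran from 3.64 to 4.99, with KO 2 at 3.64 and KO 4 at 4.09 also below WT. KO 2 was also the lowest library for the meningeal mean, at 1.67. WT 7 and KO 7, at 5.12 and 4.99 for this list, had meningeal means of 3.90 and 3.86. WT 6 departed from this, at 4.81 with a meningeal mean of 2.65. Whether this list measures the white matter in a punch was not tested. The list summed to 170 to 277 TPM in WT and 120 to 247 TPM in KO. Gfap, the astrocyte filament gene on this list, was at 0.456-fold of its WT median in KO 1 and 0.362-fold in KO 8. KO 1 ranked last or next to last of 15 for the precursor, astrocyte, microglia, endothelial and meningeal means, and KO 8 ranked from 10 to 12 for these. None of the astrocyte, white matter astrocyte, microglia, endothelial, meningeal, choroid, excitatory, deepest-layer, inhibitory or striatal genes passed the test. With the replicate number as a block, a fit that drops KO 8, Flt1, the endothelial receptor gene, was lower in KO (-0.77, limma adjusted p = 0.0276). Same-numbered libraries were not taken as pairs, and in the main fit the limma adjusted p of Flt1 was 0.206. At an unadjusted p under 0.05, 10 of 20 astrocyte, 13 of 16 endothelial, 3 of 18 microglia, 4 of 7 white matter astrocyte, 6 of 14 inhibitory and 1 of 13 meningeal genes were lower in KO, against 6.21% of all tested genes. Of 16 excitatory genes 3 were lower and 4 higher, of 9 deepest-layer genes 0 and 2, of 13 striatal and septal genes 1 and 2, and of 4 choroid genes 0 in either direction, against 5.68% of all genes higher. The lowest p-values of these lists (limma adjusted p no lower than 0.206) belonged to Slco1c1 (-0.44), Cdh5 (-0.57) and Flt1 (-0.72) for endothelium, Glul (-0.25), Mlc1 (-0.21) and Slc4a4 (-0.54) for astrocytes, and Vim (-0.48), Aqp4 (-0.38) and C4b (-0.68) for white matter astrocytes. For microglia they were Sall1 (-0.30), Ctss (-0.17) and Csf1r (-0.21), for meninges Lum (-0.61), Mgp (-0.62) and Col1a2 (-0.45), and for choroid plexus and ependyma Foxj1 (-0.06), Kcnj13 (-0.07) and Kl (0.02). For neurons they were Cux2 (-0.54), Neurod2 (0.21) and Lamp5 (-0.45) among excitatory genes, Gnb4 (0.39), Foxp2 (0.55) and Nr4a2 (-0.50) among deepest-layer genes, Gad2 (-0.20), Gad1 (-0.21) and Maf (-0.28) among inhibitory genes, and Rxrg (0.57), Pde10a (-0.38) and Gpr6 (0.24) among striatal and septal genes. These are fitted log2 changes, KO against WT. The part of these cell types in the myelin values was not tested.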

How the data were processed

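The authors deposited 1 table of TPM values with a column for each of 15 libraries, each library summing to between 999789 and 999899. Trimmomatic, HISAT2 and StringTie with mm10 are named in the submitters' processing notes; their versions, the strand setting and the annotation were not given in the sources used here. A rise of a few abundant transcripts lowers all other TPM of a library. The 2 further columns without a name, 1 value in all, were not used. A reference table of gene names matched 54723 of 54838 gene IDs, and IDs sharing a symbol were summed.

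KO was compared with WT on log2(TPM + 1) with limma 3.58.1 in R 4.3.3 (moderated test with intensity trend, two-sided, Benjamini-Hochberg over 18656 genes), a scale that understates changes of low genes. The test was checked on simulated data. The members and lists were chosen with earlier results of these data known. Every member is named. Group ranges and medians, with KO 1 and KO 8 singly, are given for the 2 members of highest mean TPM in each role and for Mag, Mog, Opalin, Hapln2 and Nkx6-2, and the 3 genes of lowest p are named for each other list. Other genes set beside these, such as Sox10, Pdgfra and Gfap, were chosen as known markers. Alternatives were 0.1 or 0.5 as pseudocount, a minimum mean of 5 TPM or none, array weights, quantile normalization, scaling by median of ratios, a robust variance prior, the replicate number as a block, the covariate, and each library left out. The fits without KO 1 and KO 8 and without Evi2a were added after seeing the data. Coordinates came from GENCODE M21 (mm10), and upstream sequences, chosen after the values were seen, from RefSeq (GRCm38.p6). The values of 1 gene outside the set are not reported here.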

Additional observations from a re-analysis of the deposited data

Results flagged for a closer look

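Of 64 groups examined (each of the 31 genes and their mean, in WT and in KO), 9 had 1 library separated from the rest of its group by a gap that Dixon's test at the 95% level marks, and chance alone marks about 1 in 20. In KO, the high library KO 8 was marked for Mag at 81.5 TPM, Gsn at 34.7 TPM, Ugt8a at 21.2 TPM, Aspa at 10.2 TPM and Myrf at 11 TPM. In WT, the low library WT 5 was marked for Plekhb1 at 65.1 TPM, Qdpr at 61.5 TPM and Evi2a, which was listed at 0, and WT 6 was marked as high for Pllp at 25.4 TPM. The mean over the 31 genes was not marked in either group.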

How the results depend on the processing

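Under all alternatives run, 0 of the 31 genes passed, with adjusted limma p-values no lower than 0.254 under the planned ones and 0.135 without KO 1 and KO 8. Genes with fitted values below 0 numbered 19, and 10 with the oligodendrocyte covariate, 30 without KO 1 and KO 8 and 11 to 26 with 1 library left out. Genes lower at an unadjusted p under 0.05 numbered 1 with quantile normalization, 1 with array weights, 3 with the replicate block, 19 without KO 1 and KO 8 and 0 to 3 with 1 library left out (3 without KO 8, 1 without WT 3, KO 5 or KO 7). The median over the 31 genes was -0.19 without KO 8, -0.15 without KO 1, -0.16 with array weights, 0.04 without KO 6 and 0.04 with the covariate. Outside the deleted segment, 1 gene became higher in KO with the replicate block (Slc26a4), 1 without KO 8 and 1 without KO 1 and KO 8 (Pisd-ps1 in both), and 0 to 1 over the fits without 1 library. With the block 7 genes were lower, among them Flt1 (-0.77, limma adjusted p = 0.0276), an endothelial gene that did not pass otherwise, Fbln5 and Gm42738. With 1 library left out 5 to 6 were lower, the added gene being Atp10a without WT 4, Slc39a8 without KO 3, Arhgap17 without KO 4 and Fbln5 without KO 7.

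Sign changes were as follows, and their causes were not tested. With a pseudocount of 0.1 Opalin was at -0.000737, with median-of-ratios scaling Gsn at -0.00383 and with quantile normalization Nkx6-2 at 0.0144. Array weights gave Tspan2 -0.0367, Opalin -0.15, Gjb1 -0.0543, Anln -0.0618, Gsn -0.0732 and Evi2a -0.111. The covariate gave Mbp 0.0516, Mobp 0.0909, Tmem88b 0.00166, Mog 0.00887, Cnp 0.0447, Ermn 0.00606, Ugt8a 0.0376, Fa2h 0.014 and Nkx6-2 0.0688. The replicate block, which drops KO 8 since WT has no such number, gave Tspan2 -0.0345, Opalin -0.127, Gjb1 -0.0731, Anln -0.0286, Gsn -0.113, Evi2a -0.0671 and Aspa -0.0228, the values of the fit without KO 8. Same-numbered libraries deviated together with correlations from -0.0425 to 0.122, so the numbers were not taken as pairs. Without KO 1 and KO 8 the values were Tspan2 -0.168, Opalin -0.352, Hapln2 -0.0207, Gjb1 -0.254, Ppp1r14a -0.0842, Anln -0.188, Gsn -0.154, Plekhb1 -0.0426, Evi2a -0.236, Aspa -0.0913 and Trf -0.017. With 1 library left out, 18 of 31 genes changed sign at least once. The ranges were -0.189 to 0.0844 for Mbp, -0.279 to 0.104 for Mobp, -0.221 to 0.0279 for Pllp, -0.0345 to 0.163 for Tspan2, -0.153 to 0.118 for Opalin, -0.261 to 0.00892 for Tmem88b, -0.315 to 0.0243 for Mog, -0.186 to 0.0521 for Cnp and -0.257 to 0.0182 for Ermn. They were -0.0731 to 0.186 for Gjb1, -0.033 to 0.181 for Anln, -0.113 to 0.064 for Gsn, -0.396 to 0.476 for Evi2a, -0.251 to 0.0351 for Ugt8a, -0.312 to 0.0418 for Fa2h, -0.0228 to 0.252 for Aspa, -0.178 to 0.096 for Nkx6-2 and -0.264 to 0.00196 for Lpar1, and for the choroid genes -0.201 to 0.0392 for Kcnj13 and -0.0333 to 0.106 for Kl.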
